A study of Coturnix japonica with 24 samples.

Results

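The nuclear-encoded subunits of the mitochondrial respiratory chain and of ATP synthase were followed, complex by complex, in male Japanese quail (Coturnix japonica), in the liver and in white fat from the abdomen. The members were every gene whose symbol began with NDUFA, NDUFB, NDUFC, NDUFS or NDUFV and a digit, NDUFAB1, SDHA to SDHD, and the symbols beginning with UQCR, COX4 to COX8 or ATP5; assembly factors of the NDUFAF family were not included. In all, 73 of 17239 genes met this rule, 72 of the 14983 genes in the liver table and 73 of the 15542 in the adipose table. They comprised 34 genes of complex I, 4 of complex II, 8 of complex III, 9 of complex IV and 18 of complex V. ATP5S and ATP5SL were placed in complex V by the prefix of their symbols alone, and whether they are subunits of it was not checked. NDUFA4 was counted with complex IV, to which its protein is now assigned. Cytochrome c1 (CYC1) and the muscle-type cytochrome c oxidase isoforms COX6A2 and COX7A1 were not analysed here.

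The inner mitochondrial membrane carries 5 such assemblies. Complex I oxidises NADH and complex II oxidises succinate, and both pass electrons to ubiquinone; complex III hands them on to cytochrome c and complex IV to oxygen. Proton pumping by complexes I, III and IV drives ATP synthase, complex V, whose rotor turns in the membrane while its head makes ATP. Most subunits are encoded in the nucleus, and a few are made in the mitochondrion from its own genome. Liver is rich in mitochondria, whereas white fat cells, filled by a lipid droplet, hold few.

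Birds had been kept on 16 h of light and 8 h of darkness and were then placed on 1 of 3 photoperiods, written here as in the labels: 8L, 8 h of light, the short day; 12v, 12 h of light; and 16v, 16 h of light. All were male, and the labels used here give neither an age nor a genetic modification. Each of the 6 combinations of tissue and photoperiod had 4 libraries, 24 in all, of polyadenylated RNA amplified as cDNA and read on a nanopore instrument. One library came from each tissue piece, so the p-values measure the spread between these pieces.

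Depth was low and uneven. Library totals were 72125 to 867217 counts in liver and 72716 to 1389063 in adipose tissue, and the members took 2101 to 31868 counts per liver library and 1208 to 31424 per adipose library. Hepatocyte markers, led by albumin, summed to 87760 to 172600 CPM (counts scaled to a common library size) in liver, and adipocyte markers, led by the fatty acid binding protein FABP4 and the fatty acid transporter CD36, to 23200 to 56270 CPM in adipose tissue, so both tissues matched their labels. A score from 64 cytosolic ribosomal protein genes set apart liver 12v replicates 1 and 3, liver 16v replicate 1 and adipose 16v replicate 2; of these, liver 12v replicate 3 and adipose 16v replicate 2 were also the shallowest of their tissue. Striated muscle markers, 12 of 14 listed in the adipose table, summed to 77460 CPM in adipose 16v replicate 4, and to 9.90 to 10370 CPM in the other adipose libraries. Hepatocyte markers, 12 of 13 listed, summed to 2054 to 21270 CPM in adipose tissue, of which APOA1 made up 1711 to 20170 CPM and TF 117 to 1676 CPM. ALB was at 0 to 36.4 CPM in 11 adipose libraries and at 503 CPM, with TTR at 117 CPM, in 16v replicate 2.

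Liver RNA held more of the respiratory chain than adipose RNA. Of the 72 members tested, 47 were higher in liver and 0 lower (edgeR's quasi-likelihood test on all 24 libraries, Benjamini-Hochberg adjusted p under 0.05 over 7049 genes). Over all tested genes, 23.9% were called higher in liver and 31.1% lower. The median log2 fold change of the members was 1.04, against -0.29 for all tested genes, and 65 of 72 members were above 0, where 42.9% of all genes were. On the scale shared by both tissues, the libraries of the tissues did not overlap for 7 members, each higher in liver, beside 5.48% of all genes. Some other tools called members lower in liver: DESeq2 gave 38 higher and 4 lower (NDUFA2, NDUFV1, SDHD and ATP5F1AW), beside 21.3% and 41.7% of all genes, and limma-voom gave 43 higher and 2 lower (NDUFS5 and ATP5F1AW), beside 24.2% and 34.5%. DESeq2 used its own scaling factors, so scale and tool changed together in that fit. Every complex had a positive median, of 0.82 in complex I, 0.28 in complex II, 1.49 in complex III, 1.24 in complex IV and 1.12 in complex V, but that of complex II turned to -0.03 with RLE scaling factors and to -0.36 with library size alone.

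The size of this difference depended on how libraries of such different tissues were scaled. With RLE factors in place of TMM factors, 38 members were called higher in liver and 3 lower, beside 20% and 39.7% of all genes. With library size alone 32 were called higher and 6 lower, beside 16.7% and 47.9%. Scaled in this way, NDUFA4, ATP5J and NDUFS4 overlapped between the tissues, which they did not with TMM factors. The median of all genes moved with the scaling, to -0.58 with RLE factors and to -0.89 with library size alone. The members' median lay 1.33 above that of all genes under each of the 3 scalings. A change of scaling moves all genes by nearly the same amount, so this gap could hardly differ and is no check on the scaling. Under all 3, 32 members were called higher: 13 of complex I, 0 of complex II, 5 of complex III, 6 of complex IV and 8 of complex V. Leaving out adipose 12v replicate 1 also moved the scale: 35 members were then called higher and 3 lower, beside 17.7% and 40.5% of all genes, with a median of 0.65 against -0.70 for all genes. Taken as unscaled shares, the members made up 2.91% to 4.13% of the counts of liver libraries, with a median of 3.64%, and 1.38% to 3.51% of those of adipose libraries, with a median of 2.13%. By complex, the median shares were 0.828% in liver and 0.636% in adipose tissue for complex I, 0.026% and 0.039% for complex II, 0.508% and 0.239% for complex III, 1.09% and 0.524% for complex IV, and 1.24% and 0.694% for complex V. In bulk tissue, fewer cells of a type and less RNA per cell cannot be told apart.

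**Figure D1:**
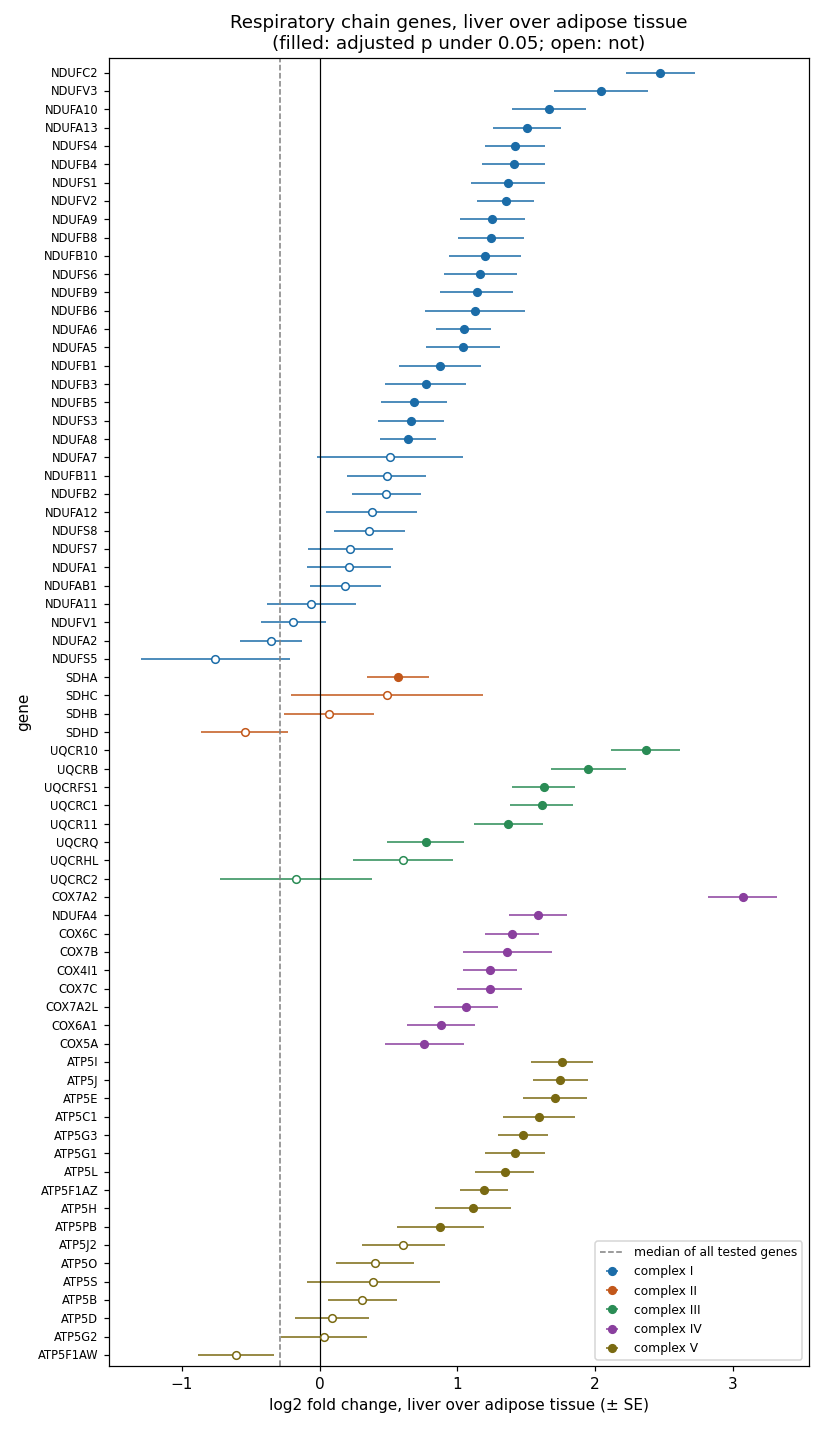
Log2 fold change of tested members, liver over adipose tissue, with its standard error, grouped by complex and ordered by size within each. Filled points passed the adjusted p threshold; all 9 members of complex IV did, and the dashed line marks the median of all tested genes at -0.29.

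Complex IV was the only complex of which every analysed member was called, 9 of 9. Its subunits COX5B, COX6B1 and COX8A were not among the members analysed, so this does not cover the whole complex. COX7A2, the liver-type form of cytochrome c oxidase subunit VIIa, differed most of all the members: on the scale shared by both tissues it had 2466 CPM in the lowest, 4184 in the median and 10920 in the highest liver library, against 346 CPM, 608 and 899 in adipose libraries. Every liver library lay above every adipose library. Its log2 fold change was 3.07 ± 0.25 (SE, n = 12 libraries a tissue), with an edgeR quasi-likelihood adjusted p of 4.89e-10. NDUFA4 was likewise without overlap on this scale, though not by library size alone, at 650 CPM, 855 and 1691 in liver against 192 CPM, 313 and 474 in adipose tissue (log2 fold change 1.58 ± 0.21, edgeR adjusted p 8.87e-07). COX6C and COX7B, small membrane-spanning subunits, were higher by 1.4 ± 0.20 and 1.36 ± 0.32 on the log2 scale. COX4I1, the general form of subunit IV, and COX7A2L, which helps join complexes III and IV into supercomplexes, were higher by 1.24 ± 0.20 and 1.06 ± 0.23. COX6A1, the non-muscle form of subunit VIa, and COX5A differed least, at 0.88 ± 0.25 and 0.76 ± 0.29. COX7C, another small subunit, had 1.23 ± 0.23. The calls on COX7A2L, COX6A1 and COX5A were lost with library size alone, at log2 fold changes of 0.47, 0.25 and 0.14, and that on COX5A in 10 of 36 alternatives in all.

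In complex III, 6 of 8 members were higher in liver. UQCR10, a small subunit next to cytochrome c1, had 785 CPM, 1535 and 2688 in the lowest, median and highest liver libraries, against 116 CPM, 275 and 569 in adipose libraries. The tissues did not overlap (log2 fold change 2.37 ± 0.25, edgeR adjusted p 3.53e-08). UQCRB, which lies at the ubiquinone site, UQCRFS1, the Rieske iron-sulphur protein, and UQCRC1, a core protein, were higher by 1.95 ± 0.27, 1.63 ± 0.23 and 1.61 ± 0.23 on the log2 scale. The other core protein, UQCRC2, was not called, at -0.17 ± 0.55, and its liver libraries ran from 0 to 220 CPM. UQCRHL, a hinge-protein-like gene, had 0.60 ± 0.36 and did not pass.

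Complex V was split by subunit, with 10 of 17 tested members higher in liver. Among the small subunits outside the catalytic head, ATP5I (subunit e) had 1362 CPM, 2430 and 3563 in liver against 250 CPM, 746 and 995 in adipose tissue, and ATP5J (coupling factor 6) had 722 CPM, 1604 and 2420 in liver against 304 CPM, 465 and 711 in adipose tissue. Neither overlapped between tissues with TMM factors, but ATP5J did by library size alone. Their log2 fold changes were 1.76 ± 0.23 and 1.75 ± 0.20, with edgeR adjusted p-values of 6.92e-07 and 1.18e-07. In the catalytic head, ATP5E (epsilon), ATP5C1 (gamma, the central shaft) and ATP5F1AZ (alpha) were higher by 1.71 ± 0.23, 1.59 ± 0.26 and 1.19 ± 0.17. The other head subunits did not pass: ATP5B, the catalytic beta subunit, had 0.31 ± 0.25 and ATP5D, the delta subunit, 0.09 ± 0.27. Outside the head, ATP5J2 and ATP5O did not pass either, at 0.61 and 0.40 (edgeR adjusted p 0.0921 and 0.238). The call on ATP5PB, at 0.88, was lost with RLE factors (0.55, edgeR adjusted p 0.0971).

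The membrane ring of ATP synthase is built from a c subunit that 3 genes encode with different targeting sequences. ATP5G1 and ATP5G3 were higher in liver by 1.42 ± 0.22 and 1.48 ± 0.18 on the log2 scale, whereas ATP5G2 had 0.03 ± 0.31 and did not pass. Of the CPM of the 3 genes together, on the scale of each tissue, ATP5G2 made up 0.503% to 7.73% in liver libraries and 4.31% to 10.004% in adipose libraries. Within liver it made up 4.05% to 7.73% at 8L, 0.503% to 3.8% at 12v and 1.06% to 2.82% at 16v, so neither longer photoperiod overlapped 8L. Within adipose tissue it made up 9.16% to 10.004% at 8L, 6.72% to 8.11% at 12v and 4.31% to 8.25% at 16v, again without overlap with 8L. In liver the summed counts were 1.84 times those of the largest transcript for ATP5G1, 2.98 times for ATP5G3 and 1.0 times for ATP5G2. In adipose tissue the values were 1.80, 2.98 and 1.0. Where these are reads counted more than once, the share of ATP5G2 is understated. The shares are given as a description, and no test was made of them.

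The alpha subunit was listed as a pair of genes, ATP5F1AZ and ATP5F1AW, named for copies on the Z and W sex chromosomes. W is carried by female birds only, and all birds here were male. ATP5F1AW had 0 to 26 counts in liver libraries and 3 to 69 in adipose libraries, beside 42 to 471 and 25 to 539 counts of ATP5F1AZ. The share of the pair assigned to ATP5F1AW was 0.00% to 8.07% in liver and 9.16% to 21.7% in adipose tissue, without overlap. ATP5F1AW was summed over 3 transcripts and ATP5F1AZ had 1, which can raise this share. With 1 transcript per gene it was 0.0% to 2.95% in liver and 3.85% to 14.4% in adipose tissue. Reads of near-identical copies can also be split between them in counting, so the values of both genes are uncertain. The log2 fold change of ATP5F1AW, liver over adipose tissue, was -0.61 ± 0.28 (edgeR adjusted p 0.065), and it became -2.01 with an edgeR adjusted p of 1.76e-07 when 1 transcript per gene was counted. That transcript was picked over both tissues, whereas for the shares it was picked in each tissue. The shares and the fold change need not rest on the same transcript.

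Complex I had 21 of 34 members higher in liver. NDUFC2, a subunit of the membrane arm, had 253 CPM, 674 and 1355 in the lowest, median and highest liver libraries, against 81.0 CPM, 114 and 200 in adipose libraries. Liver lay above adipose tissue in every library (log2 fold change 2.47 ± 0.25, edgeR adjusted p 2.23e-08). NDUFV3, in the NADH-oxidising arm, NDUFA10 and NDUFA13 were higher by 2.04 ± 0.34, 1.66 ± 0.27 and 1.51 ± 0.25. NDUFS4, whose loss causes Leigh syndrome in humans, was the other member without overlap, at 169 CPM, 208 and 478 in liver against 37.4 CPM, 89.4 and 134 in adipose tissue. By library size alone its tissues overlapped.

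The catalytic core of complex I was split between called and uncalled members. NDUFS1, the largest iron-sulphur subunit, was higher in liver by 1.37 ± 0.27 on the log2 scale, and NDUFV2 by 1.35 ± 0.20. NDUFV1, which binds NADH and the flavin, had -0.19 ± 0.23 and did not pass. Of the core subunits that lead electrons to ubiquinone, NDUFS3 was higher by 0.66 ± 0.24, a call lost with RLE factors (0.35, edgeR adjusted p 0.167) and with library size alone (0.04, edgeR adjusted p 0.905), while NDUFS8 and NDUFS7 had 0.36 ± 0.26 and 0.22 ± 0.31. NDUFAB1, the mitochondrial acyl carrier protein, had 0.19 ± 0.26.

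Complex II had the lowest median of the 5 complexes. Of its 4 members only SDHA, the flavoprotein that oxidises succinate, was called, at 0.57 ± 0.23 on the log2 scale (edgeR adjusted p 0.0374). This call was lost in 21 of 36 alternatives, and the value was -0.03 with library size alone. SDHB, the iron-sulphur subunit, had 0.07 ± 0.33, and the membrane anchors SDHC and SDHD had 0.49 ± 0.70 and -0.54 ± 0.32. SDHD was called lower in liver with RLE factors, at -0.89 (edgeR adjusted p 0.0104). SDHC was barely detected, with a median of 3.93 CPM in liver and 6.36 CPM in adipose tissue.

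Partner genes of the chain were read from 4 further lists, whose counts stand beside the 23.9% of all genes called higher in liver and the 31.1% called lower. Of the tricarboxylic acid cycle and pyruvate dehydrogenase genes, 8 of 15 tested were higher in liver and 4 lower. Fumarase (FH) was higher by 3.28 ± 0.26 and the pyruvate dehydrogenase subunit PDHX by 3.17 ± 0.29. OGDH, of the 2-oxoglutarate dehydrogenase complex, was lower by 2.69 ± 0.61 and citrate synthase (CS), the entry enzyme of the cycle, by 1.5 ± 0.50 in liver relative to adipose tissue. Both were near 0 in some liver libraries, which had 0 to 58.3 CPM of OGDH and 0 to 22.9 CPM of CS. Within liver, CS did not pass the filter on low counts. Of the assembly factors, 6 of 21 tested were higher and 1 lower; ACAD9, a complex I assembly factor, and COX19 and COX17, which deliver copper to complex IV, were higher by 2.61 ± 0.21, 1.78 ± 0.28 and 1.27 ± 0.24. Of the mobile carriers and ubiquinone synthesis genes, 4 of 9 were higher, among them cytochrome c (CYCS) by 1.31 ± 0.26, and 1 was lower. Of 5 regulators of mitochondrial biogenesis tested, TFAM, which packages mitochondrial DNA, was lower in liver, at -1.10 ± 0.41, as was PPARGC1B, a coactivator of mitochondrial genes, at -1.45 ± 0.60. Liver libraries had only 0 to 37.5 CPM of TFAM and 0 to 17.5 CPM of PPARGC1B, which did not pass the filter on low counts within liver. MTERF3 was higher by 1.10 ± 0.42, a call lost with RLE factors (0.83, edgeR adjusted p 0.105). With library size alone the counts were 6 higher and 6 lower for the tricarboxylic acid cycle list, 4 and 4 for assembly factors, 2 and 3 for carriers and ubiquinone synthesis, and 0 and 3 for the regulators. These stand beside 16.7% of all genes called higher and 47.9% called lower in that fit.

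Within liver, no member passed the test between photoperiods. At 12v against 8L, 0 of 71 tested members were called, where 0.331% of 4532 genes were. At 16v against 8L, 0 of 71 were called, where 0.794% of genes were. ATP5S, named for a coupling factor of ATP synthase, was the only liver member left out by the filter on low counts. At an unadjusted p under 0.05, 19 members were lower and 4 higher at 12v than at 8L, beside 8.36% and 9.95% of all genes, and 20 were lower and 2 higher at 16v than at 8L, beside 11% and 10.3% of all genes. Of the 71 members, 49 were below 0 at 12v and 50 at 16v, where 52.7% and 47.4% of all genes were. The median log2 fold change of the members was -0.58 at 12v and -0.54 at 16v, against -0.08 and 0.07 for all tested genes; both comparisons share the 8L libraries.

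Other tools differed on this point. At 16v against 8L, DESeq2 called 17 members lower, beside 7.15% of all genes in the same fit, limma-voom 7, beside 2.96%, and a fit of the 8L and 16v libraries alone 11, beside 5.1%. Counting of 1 transcript per gene gave 12 lower and 1 higher, beside 8.88% and 9.5%. At 12v against 8L, DESeq2 called 10 members lower, beside 3.91%, and limma-voom 0. Without the 3 liver libraries set apart by the ribosomal protein score, 7 members were called lower at 16v than at 8L, beside 1.39% of all genes, but the members' median moved to -0.32, and to -0.25 at 12v against 8L. With that score as a covariate, 0 members were called and the medians were -0.07 and -0.14. The score itself ran from 2.49 to 5.75 at 8L, from -7.79 to 2.95 at 12v and from -8.34 to 0.97 at 16v. A fit with it therefore also takes out change that goes with photoperiod, and cannot tell the 2 apart. Sums of some other marker lists differed by photoperiod in liver as well. Hepatocyte markers summed to 130200 to 172600 CPM at 8L, 92460 to 154300 at 12v and 87760 to 126700 at 16v. Genes of this list were not alike. ALB, its largest part, overlapped between 8L (62750 to 108800 CPM) and 16v (45950 to 88410). APOA1 was lower at 16v (4334 to 6718 CPM) than at 8L (10610 to 20780), and FGB was higher (1419 to 4605 against 683 to 1290). Smooth muscle markers (4 of 5 listed) summed to 30.9 to 105 CPM at 8L, 140 to 265 at 12v and 174 to 275 at 16v. MYLK, the largest part in most libraries, had 15.5 to 70.2 CPM at 8L, 53.95 to 162 at 12v and 103 to 235 at 16v. MYH11, ACTA2 and TAGLN of this list overlapped between 8L and 16v. Endothelial markers (7 of 7 listed) summed to 48.6 to 116 CPM at 8L, 97.99 to 237 at 12v and 118 to 172 at 16v, and adipocyte markers (7 of 8) to 692 to 960 CPM at 8L, 1159 to 1416 at 12v and 863 to 1326 at 16v. The adipocyte sum was mostly CD36, at 583 to 823 CPM at 8L, 1113 to 1374 at 12v and 832 to 1301 at 16v. CIDEC, of the same list, went the other way, at 61.9 to 188 CPM at 8L, 0 to 54.1 at 12v and 2.19 to 6.98 at 16v. Striated muscle markers (6 of 14) summed to 8.84 to 18.6 CPM at 8L, 0 to 11.8 at 12v and 4.38 to 5.52 at 16v. The sums at 16v did not overlap 8L for the hepatocyte, smooth muscle, endothelial and striated muscle lists, the last at 18.6 CPM or below. Those at 12v did not for the smooth muscle and adipocyte lists. Erythroid and leukocyte sums at 12v and 16v overlapped those at 8L. The part of these marker lists in the members' values was not tested.

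**Figure D2:**
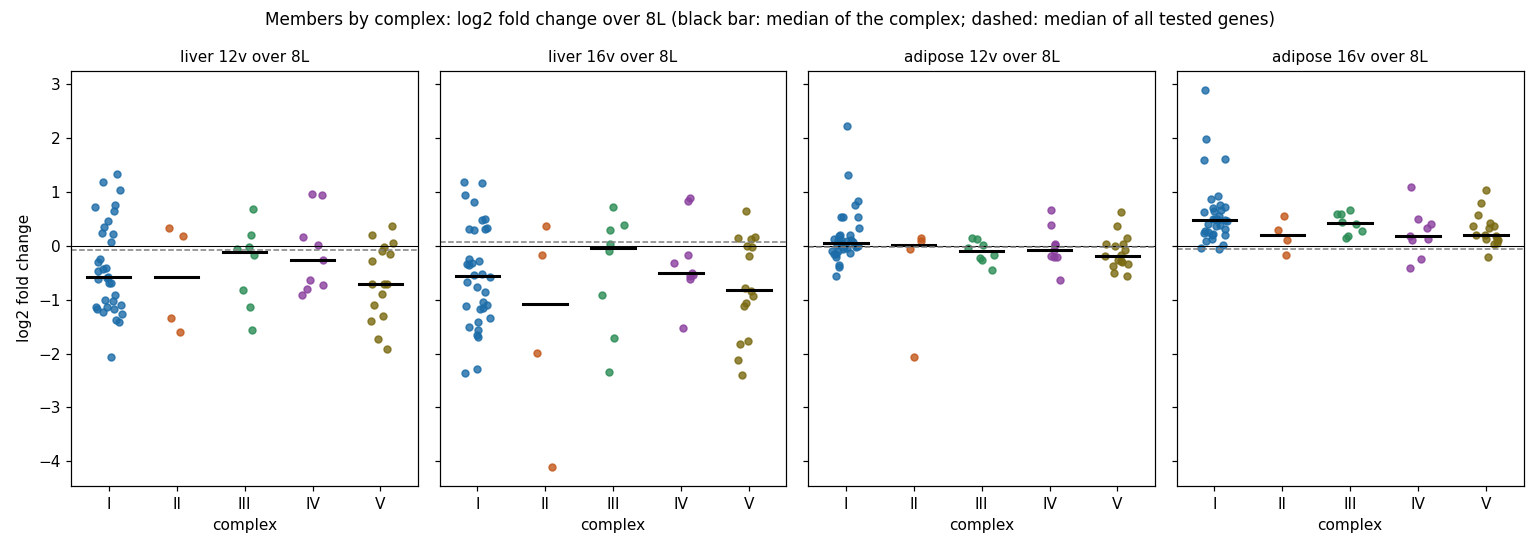
Log2 fold change over 8L of each tested member, by complex, for 12v and 16v in liver and in adipose tissue. In liver the medians of complexes I, II and V lie between -1.08 and -0.56, in adipose tissue at 16v those of all 5 complexes lie above 0, and no point passed the adjusted p threshold.

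By complex, the liver medians at 16v against 8L were -0.56 for complex I, -1.08 for complex II, -0.03 for complex III, -0.50 for complex IV and -0.81 for complex V. At 12v against 8L they were -0.59, -0.58, -0.12, -0.27 and -0.71 in the same order of complexes. The groups did not overlap for 13 members with lower values at 12v than at 8L, 4 of them in complex I, 1 each in complexes II and III, 3 in complex IV and 4 in complex V, beside 7.02% of all genes, and for 0 with higher values, beside 5.41%. At 16v this held for 26 members with lower values than at 8L, 12 of them in complex I, 2 in complex II, 1 in complex III, 3 in complex IV and 8 in complex V, beside 11.7% of all genes. It held for 4 with higher values at 16v, NDUFB6, NDUFB8, UQCRFS1 and COX6A1, beside 9.89%.

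ATP5D had the smallest p of all members at 16v. It had 401 CPM, 665, 692 and 560 at 8L, then 91.1 CPM, 156, 43.2 and 390 at 12v, and 63.5 CPM, 105, 121 and 149 at 16v. The 4 libraries at 8L were the highest, and 12v replicate 4 lay close below them. The log2 fold change was -2.40 ± 0.55 at 16v against 8L (edgeR adjusted p 0.061) and -1.72 ± 0.53 at 12v against 8L (edgeR adjusted p 0.144). ATP5B, the catalytic beta subunit, had 212 CPM, 294, 302 and 216 at 8L, 140 CPM, 108, 43.2 and 172 at 12v, and 41.6 CPM, 66.2, 76.8 and 114 at 16v, again with 8L on top (log2 fold change at 16v -1.77 ± 0.43, edgeR adjusted p 0.061). Other subunits of the same enzyme had values near 0: ATP5E had -0.03 ± 0.40 at 12v and 0.13 ± 0.40 at 16v, and ATP5F1AZ -0.28 ± 0.26 and -0.02 ± 0.26.

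The c subunit genes had unlike values in liver. ATP5G2 had 127 CPM, 274, 212 and 278 at 8L, 25.6 CPM, 62.5, 10.8 and 122 at 12v, and 24.1 CPM, 35.3, 66.4 and 76.8 at 16v. Its 8L libraries were above all others, although 12v replicate 4 came close to 8L replicate 1. The log2 fold change at 16v against 8L was -2.12 ± 0.60 (edgeR adjusted p 0.0925). ATP5G1 had -0.85 ± 0.31 and ATP5G3 -0.01 ± 0.29 at 16v, and no test of the difference between these genes was made.

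**Figure D3:**
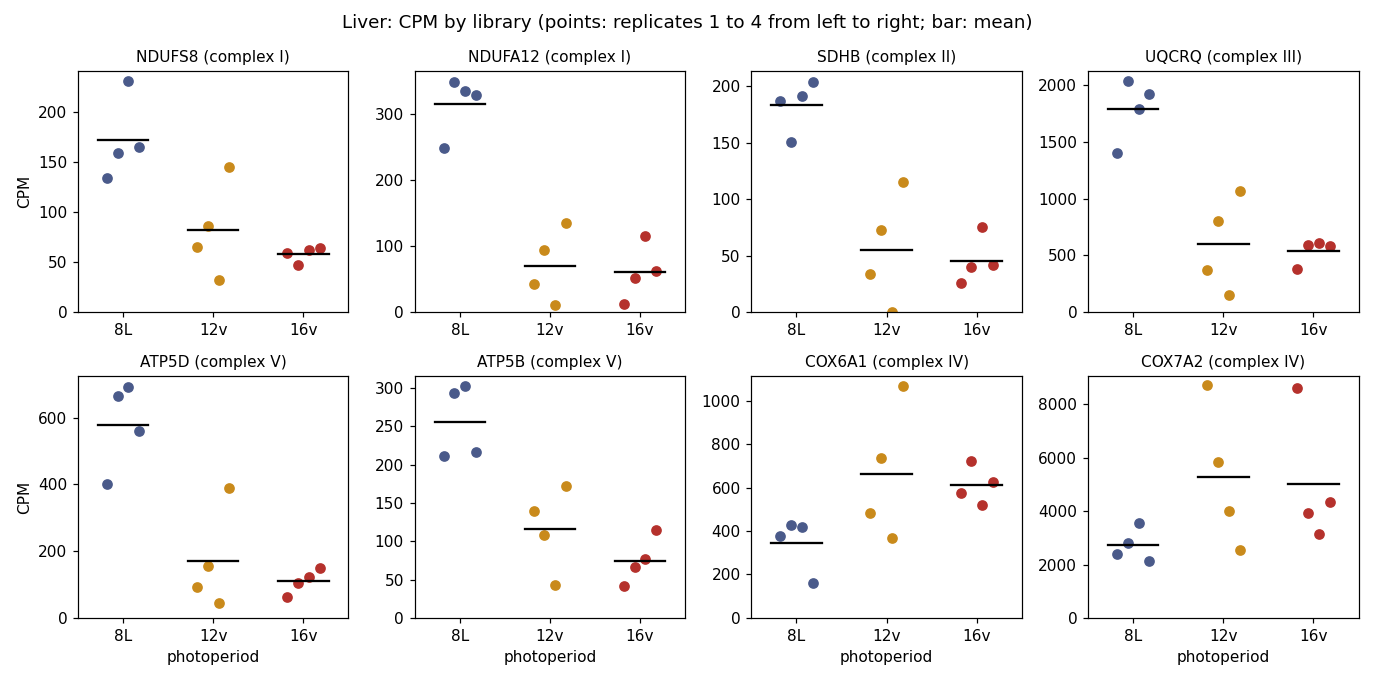
CPM of 8 members in each liver library at 8L, 12v and 16v, with the group mean as a bar. For NDUFS8, NDUFA12, SDHB, UQCRQ, ATP5D and ATP5B every 16v library lies below every 8L library; for COX6A1 every 16v library lies above, and COX7A2 peaks at 8724 CPM in 12v replicate 1.

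In complex I of liver, NDUFA12, which sits where the NADH-oxidising and ubiquinone-reducing parts meet, had 250 CPM, 349, 335 and 329 at 8L, 42.7 CPM, 94.5, 10.8 and 135 at 12v, and 13.1 CPM, 51.9, 116 and 62.8 at 16v. No library of the longer photoperiods reached the 8L range, at log2 fold changes of -2.07 ± 0.64 at 12v and -2.36 ± 0.64 at 16v (edgeR adjusted p 0.144 and 0.085). NDUFS8, a core iron-sulphur subunit, had 134 CPM, 159, 231 and 165 at 8L, 65.5 CPM, 85.8, 32.4 and 145 at 12v, and 59.1 CPM, 47.4, 62.5 and 64.0 at 16v (log2 fold change at 16v -1.56 ± 0.41, edgeR adjusted p 0.0775). Only 12v replicate 4 came into the 8L range. The 10 members of the NADH-oxidising arm, a grouping made after these values were seen, ran from -2.36 to 1.19 at 16v against 8L with a median of 0.02. NDUFV3 was the highest of these, at 1.19 ± 0.45 (edgeR adjusted p 0.156), and NDUFS1 had 0.47 ± 0.36.

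In complex II of liver, SDHB had 187 CPM, 150, 192 and 203 at 8L, 34.2 CPM, 72.7, 0 and 115 at 12v, and 26.3 CPM, 39.7, 75.6 and 41.9 at 16v. The 8L libraries stood above all others (log2 fold change at 16v -1.99 ± 0.64, edgeR adjusted p 0.119). SDHA, its partner in the soluble part of the complex, had 0.36 ± 0.36 at 16v, with 44.4 to 77.1 CPM at 8L, 64.2 to 94.5 at 12v and 59.9 to 105 at 16v. SDHC had 13.4 to 50.8 CPM at 8L and was listed at 0 in 3 of 4 libraries at 12v and in 3 of 4 at 16v. The summed CPM of complex II was 355 ± 45.8 at 8L, 228 ± 124 at 12v and 197 ± 27.7 at 16v (SD, n = 4 each).

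In complex III of liver, UQCRQ, a small subunit near the ubiquinone site, had 1397 CPM, 2029, 1790 and 1915 at 8L, 373 CPM, 802, 151 and 1063 at 12v, and 385 CPM, 590, 614 and 584 at 16v. No library at 12v or 16v reached the 8L range. The log2 fold changes were -1.56 ± 0.48 and -1.71 ± 0.48, with edgeR adjusted p-values of 0.143 and 0.0888. The Rieske protein UQCRFS1 had 0.67 ± 0.36 at 12v and 0.71 ± 0.35 at 16v, UQCR10 had 0.20 and 0.04, and UQCRC1 had -0.02 and -0.11, in the same order.

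The summed CPM of complex IV in liver was 11051 ± 1897 at 8L, 11114 ± 2485 at 12v and 11095 ± 2117 at 16v (SD, n = 4 each), and its members lay on both sides of 0. COX7A2 had 2393 CPM, 2789, 3554 and 2148 at 8L, 8724 CPM, 5848, 3993 and 2544 at 12v, and 8598 CPM, 3937, 3137 and 4328 at 16v. Its highest values, in 12v replicate 1 and 16v replicate 1, came from libraries that the ribosomal protein score also set apart, and 12v and 16v overlapped 8L. The log2 fold changes were 0.96 ± 0.44 at 12v and 0.88 ± 0.44 at 16v (edgeR adjusted p 0.267 and 0.271). COX7A2 made up 21.8% to 26.3% of the complex IV sum at 8L, 26.3% to 62.8% at 12v and 32.6% to 61.5% at 16v. Without COX7A2 the sum was 8330 ± 1322 CPM at 8L, 5836 ± 1221 at 12v and 6095 ± 825 at 16v. These shares and sums depend on the counting of transcripts. In liver the summed counts were 2.0 times those of the largest transcript for COX7A2, 3.57 times for COX4I1 and 1.0 times for COX6C. With 1 transcript per gene the complex IV sum averaged 6491 CPM at 8L, 6255 at 12v and 6181 at 16v.

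Among the other members of complex IV in liver, COX6A1 had 379 CPM, 429, 417 and 160 at 8L, 484 CPM, 736, 367 and 1068 at 12v, and 574 CPM, 722, 518 and 628 at 16v. Its 16v libraries were all above 8L (log2 fold change 0.82 ± 0.39, edgeR adjusted p 0.251). COX5A had -1.52 ± 0.50 at 16v (edgeR adjusted p 0.127), COX7C -0.61 ± 0.37, COX6C -0.54 ± 0.28 and COX4I1 -0.50 ± 0.31.

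**Figure D4:**
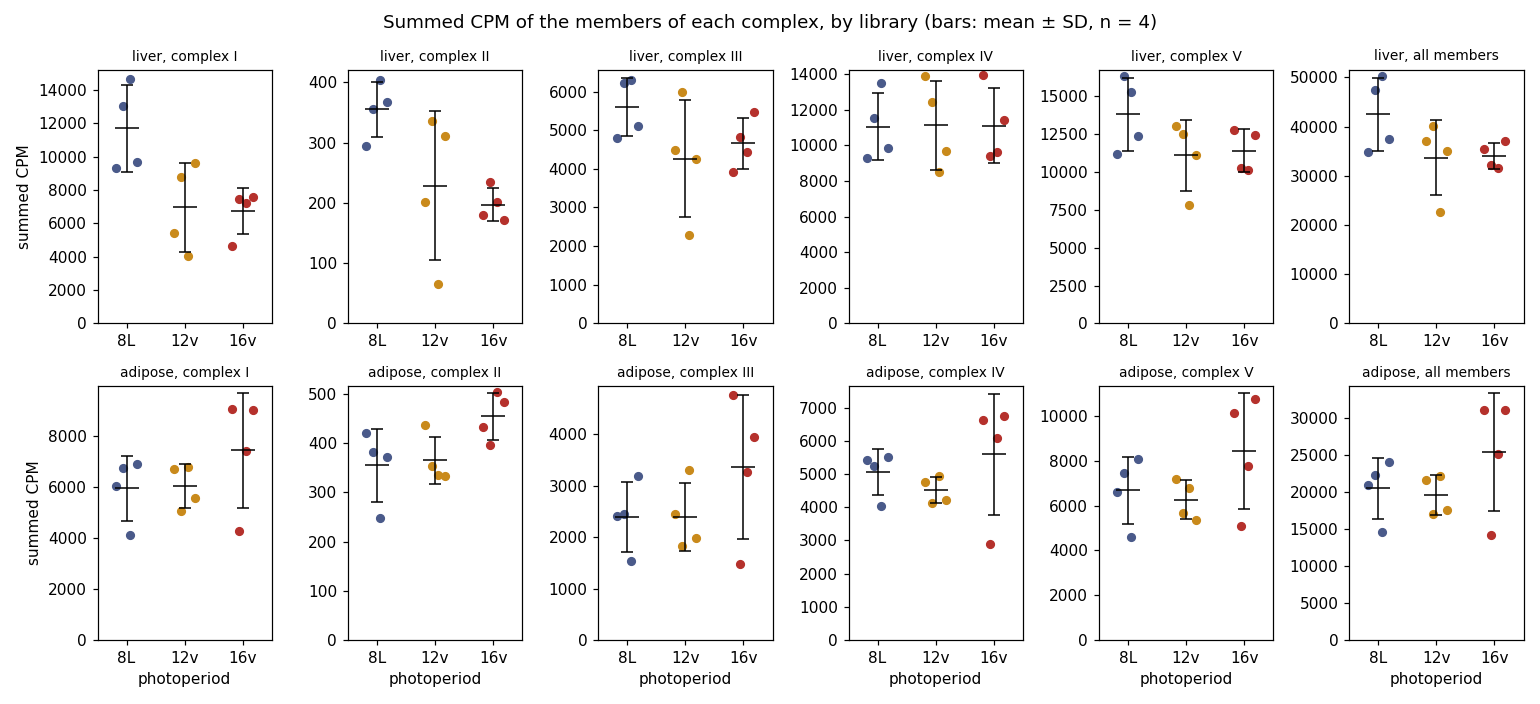
Summed CPM of the members of each complex and of all members in every library, by photoperiod, for liver (top) and adipose tissue (bottom), with mean ± SD of 4 libraries. The complex I sum in liver averages 11685 CPM at 8L, 6957 at 12v and 6728 at 16v, and the complex IV sum 11051, 11114 and 11095; axes differ between panels.

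In liver at 16v against 12v, 0 of 71 members were called by edgeR's quasi-likelihood test, where 0.0221% of genes were. At an unadjusted p under 0.05 there were 0 members, beside 2.01% of all genes, and the median was -0.10 against 0.05 for all genes. DESeq2 and limma-voom also called 0. The smallest p in this comparison belonged to SDHC, at -2.77 ± 1.5. Without 12v replicate 4 the median turned to 0.15, against 0.17 for all genes.

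Adipose tissue gave no called member either. At 12v against 8L, 0 of 71 members were called, where 0.0154% of 6494 genes were, and the median was -0.01 against -0.03 for all genes, with 38 members below 0 and 33 above, where 53.2% of all genes were below. At an unadjusted p under 0.05, 2 were higher and 1 lower, beside 2.73% and 2.23% of all genes, and DESeq2 and limma-voom called 0. At 16v against 8L, 0 were called, where 0% of genes were, and at 16v against 12v 0 were called, again with 0% of genes; limma-voom also called 0 in both. ATP5S and ATP5SL did not pass the filter on low counts.

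At 16v most adipose members lay above 0, with none called. Against 8L, 65 of 71 members were above 0, where 45.6% of all genes were, and their median was 0.36 against -0.06; 9 were higher and 0 lower at an unadjusted p under 0.05, beside 3.14% and 3.54% of all genes. Against 12v, 67 of 71 were above 0, where 48.1% of all genes were, with a median of 0.41 against -0.03; 4 were higher and 0 lower at an unadjusted p under 0.05, beside 2.25% and 2.46% of all genes, and DESeq2 called 0. The 2 comparisons share the 16v libraries. The medians against 8L were 0.47 in complex I, 0.20 in complex II, 0.42 in complex III, 0.17 in complex IV and 0.20 in complex V. These values moved with single libraries. Without 8L replicate 3 the median against 8L was 0.17 with 51 members above 0, and without 16v replicate 4, the library with the most striated muscle marker RNA, it was 0.17 with 49 above 0. Without 16v replicate 2, which the ribosomal protein score set apart, it was 0.51 with 67 above 0.

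The summed CPM of all members showed the same spread, at 20459 ± 4138 in adipose tissue at 8L, 19578 ± 2678 at 12v and 25309 ± 7968 at 16v (SD, n = 4 each). Replicate by replicate, the 16v sums were 31058 CPM, 14121, 25074 and 30982, against 20946 CPM, 22294, 14551 and 24045 at 8L. The lowest and the highest sums of adipose tissue both came from 16v. Without the 3 adipose libraries in which muscle markers listed in both tables passed 1000 CPM (12v replicate 2, 16v replicates 2 and 4), the median at 16v against 8L was 0.40 with 62 of 72 members above 0, from 2 libraries at 16v. With all striated muscle markers of the adipose table, 8L replicate 1 (4323 CPM) and 12v replicate 3 (1219 CPM) also passed 1000 CPM, and both stayed in this fit.

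**Figure D5:**
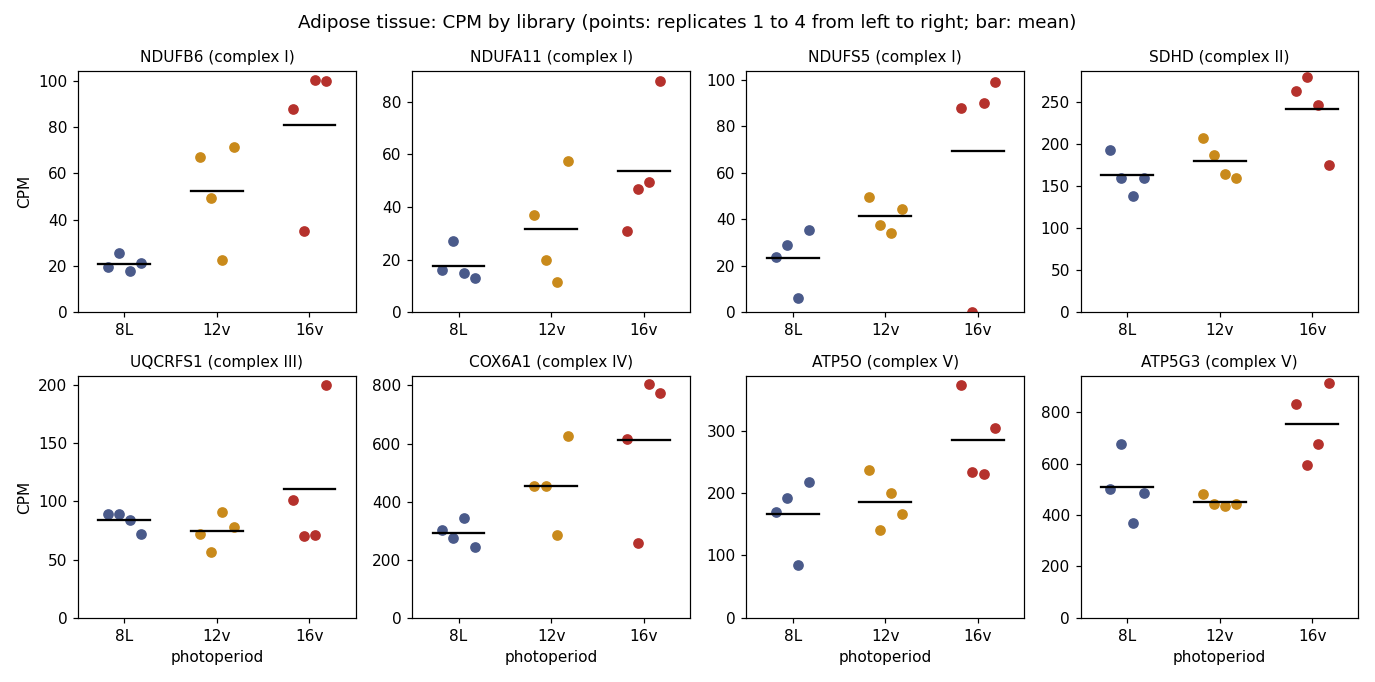
CPM of 8 members in each adipose library at 8L, 12v and 16v, with the group mean as a bar. NDUFB6, NDUFA11 and ATP5O have every 16v library above every 8L library; in the other panels the groups overlap. In 16v replicate 2 the NDUFB6 and NDUFA11 points are a few counts each.

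NDUFB6, a membrane-arm subunit of complex I, had the smallest p of the adipose members. It had 19.4 CPM, 25.5, 18.05 and 21.2 at 8L, 66.85 CPM, 49.5, 22.8 and 71.1 at 12v, and 87.9 CPM, 35.1, 100.1 and 99.99 at 16v. All 16v libraries were above all 8L libraries, and at 12v only replicate 3 fell into the 8L range. The shallowest adipose library, 16v replicate 2, had 72716 counts in all, and its 35.1 CPM of NDUFB6 were only 3 counts. The log2 fold changes were 1.98 ± 0.42 at 16v (edgeR adjusted p 0.299) and 1.31 ± 0.41 at 12v (edgeR adjusted p 0.615). NDUFA7, in the NADH-oxidising arm, had 3.42 CPM, 9.22, 6.015 and 1.18 at 8L, 24.8 CPM, 25.4, 8.54 and 35.6 at 12v, and 21.2 CPM, 0, 58.02 and 58.6 at 16v (log2 fold change at 16v 2.89 ± 0.74, edgeR adjusted p 0.444). The library at 0 was 16v replicate 2, so 16v and 8L overlapped. Values at 8L were near 0 as well, so the size of the NDUFA7 fold change rests on few counts. DESeq2 and the count of 1 transcript per gene called both genes higher at 16v, 2 members each, beside 0.277% and 0.288% of all genes. NDUFA11 had 15.96 CPM, 26.96, 15.04 and 12.96 at 8L, 37.1 CPM, 20.06, 11.4 and 57.4 at 12v, and 30.9 CPM, 46.8, 49.3 and 87.9 at 16v, with 16v above 8L in every library (log2 fold change 1.59 ± 0.52, edgeR adjusted p 0.525).

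Outside complex I, 4 adipose members were without overlap or had small p-values at 16v against 8L. COX6A1 had 301 CPM, 275, 343 and 243 at 8L, 455.5 CPM, 455, 285 and 627 at 12v, and 615 CPM, 257, 804 and 774 at 16v, with only 16v replicate 2 inside the 8L range (log2 fold change 1.09 ± 0.36, edgeR adjusted p 0.525). ATP5O, the stalk protein that confers oligomycin sensitivity, had 170 CPM, 192, 84.2 and 218 at 8L, 238 CPM, 140, 199 and 166 at 12v, and 373 CPM, 234, 231 and 305 at 16v, with 16v above 8L in every library (0.78 ± 0.33 on the log2 scale at 16v). ATP5H, the stalk subunit d, and ATP5G3 had 1.04 ± 0.39 and 0.57 ± 0.25. In all, 4 members had higher values at 16v than at 8L without overlap, NDUFA11, NDUFB6, NDUFB8 and ATP5O, beside 1.48% of all genes, and 0 had lower ones, beside 3.57%. In 16v replicate 2 the values of NDUFA11, NDUFB6 and NDUFB8 were 46.8, 35.1 and 58.45 CPM, a few counts each, so these separations are weak. COX7A2, which differed most between tissues, had -0.63 ± 0.29 at 12v and -0.41 ± 0.29 at 16v in adipose tissue, with 734 to 1101 CPM at 8L, 472 to 775 at 12v and 421 to 980 at 16v.

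Whether liver and adipose tissue changed differently with photoperiod was tested directly, as the change in liver minus the change in adipose tissue. In the fit of all 24 libraries, 0 of 72 members were called at 12v against 8L, where 0.482% of 7049 genes were, 0 at 16v against 8L, where 0.298% were, and 0 at 16v against 12v, where 0% were. At 12v against 8L, 1 member lay above 0 and 1 below at an unadjusted p under 0.05, beside 5.39% and 5.52% of all genes. At 16v against 8L the members' median difference was -0.74, against 0.17 for all genes, 57 of 72 were below 0, where 45.3% of all genes were, and at an unadjusted p under 0.05 there were 1 member above 0 and 21 below, beside 8.58% and 6.57% of all genes. ATP5D, UQCRQ and NDUFA12 had the smallest p-values, at -2.21 ± 0.67, -2.09 ± 0.69 and -2.34 ± 0.81 (edgeR adjusted p 0.143, 0.155 and 0.171). DESeq2 called 11 members below 0 in this test, beside 2.79% of all genes, counting 1 transcript per gene gave 4, beside 2.37%, and limma-voom gave 0.

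COX7A2 was on the other side. Its change in liver minus that in adipose tissue was 1.59 ± 0.56 at 12v against 8L, the smallest p of all members in that comparison (edgeR adjusted p 0.292), and 1.47 ± 0.56 at 16v against 8L (edgeR adjusted p 0.22). DESeq2 called it at 12v, the only member it called there, beside 1.55% of all genes called above 0. At 16v against 12v 0 members were called by DESeq2 and limma-voom as well, and at an unadjusted p under 0.05 there were 0 members above 0 and 1 below, SDHC at -4.53 ± 1.71, beside 3.52% and 1.99% of all genes.

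The further lists gave no call within either tissue. In liver at 16v against 8L, 0 of 18 tested assembly factors were called, with 4 lower and 1 higher at an unadjusted p under 0.05, beside 11% and 10.3% of all genes, among them SDHAF2, which attaches the flavin to SDHA, at -1.75 ± 0.47 (edgeR adjusted p 0.0793). Of the tricarboxylic acid cycle genes, 0 of 13 were called, with OGDH at -5.29 ± 1.41 and DLAT, a pyruvate dehydrogenase subunit, at -1.54 ± 0.43 (edgeR adjusted p 0.0778 and 0.0888). OGDH had 44.6 CPM, 26.5, 58.3 and 5.73 at 8L and 0 CPM, 1.10, 0 and 1.16 at 16v. The size of its fold change thus rests on values at or near 0. Other genes of these lists were higher at 16v than at 8L without overlap. FH had 163.3 to 212.5 CPM at 8L and 263 to 346.4 at 16v, and PDHX 48.62 to 64.59 and 89.59 to 186.5. The assembly factor ACAD9 had 114.6 to 126 CPM at 8L and 186.1 to 311.1 at 16v. COQ7, an enzyme of ubiquinone synthesis, had 2.18 ± 0.65 (edgeR adjusted p 0.103). ETFA, of the same list, was lower without overlap, at 80.21 to 116.7 CPM at 8L and 0 to 31.26 at 16v. The regulator TFAM was also lower, at 26.74 to 37.5 CPM and 0 to 13.96. The genes named here are examples from lists with values in both directions. In adipose tissue at 16v against 8L, COQ9, which binds a ubiquinone precursor, had the smallest p of these lists at 2.03 ± 0.41 (edgeR adjusted p 0.293).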

How the data were processed

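Libraries were made from polyadenylated RNA by PCR-cDNA barcoding for nanopore sequencing, per the labels' protocols; minimap2 and Salmon are named in the submitters' processing notes, without versions, with build and annotation not given in the sources used here. Per transcript and tissue, the authors deposited expected counts, of which 99.5% in liver and 99.6% in adipose tissue were whole within 1e-06. The deposited expected counts were rounded and summed per gene symbol, so a read counted on several transcripts of a gene can count more than once. In all, 28 members had more than 1 transcript. Levels, sums and shares are therefore not on one footing between genes with 1 transcript and genes with several. The tables were joined over 13286 shared genes for tests between tissues.

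Genes were kept with edgeR's filterByExpr (minimum count 10, total 15), scaled with TMM factors and tested with edgeR 4.0.16 (R 4.3.3, quasi-likelihood F test, Benjamini-Hochberg adjustment over all tested genes, threshold 0.05). One mean was fitted per group, over the 12 libraries of a tissue or all 24. DESeq2 1.42.0 and limma 3.58.1 (voom), other scalings, filters and left-out libraries were alternatives, and the scripts were tested on simulated data. DESeq2 ran with its own size factors, and voom with the TMM factors. CPM are TMM-scaled, and the scale of a level (tissue or both tissues) is that of its comparison. Named genes were called members, up to 4 per direction and complex, the smallest p where none was called, and a panel of core subunits and isoforms; others were named after their values were seen. The members and lists were chosen with earlier results of these data known. No pair of libraries in a group agreed within sampling noise (chi-square per degree of freedom at least 9.67). The numbers in the labels are shared by a liver and an adipose library in 11 cases and presumably mark a bird. The series describes as many birds as liver libraries. Number 104 stands in adipose tissue only and number 108 in liver only, so there are more numbers than birds described, which was not resolved. Deviations of the pairs with a shared number correlated at -0.04 to 0.08. All value columns were used. The values of 1 member are not reported here singly.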

Additional observations from a re-analysis of the deposited data

Results flagged for a closer look

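Single libraries that stood apart from the other 3 of their group (Dixon's test at its 95% critical value) were looked for in 213 groups of 4 libraries, of summed CPM per complex and of named members; 14 were found, 6.57% of them, where chance flags about 1 in 20. In liver, the summed CPM of complex I was lowest in 16v replicate 1, at 4658, and the same library had the lowest UQCRQ of its group, at 385 CPM, and the highest NDUFA4, at 1332 CPM; it is one of those set apart by the ribosomal protein score. NDUFS6 was lowest in liver 8L replicate 1 at 227 CPM. SDHA was highest in liver 12v replicate 2 at 94.5 CPM, and UQCRC2 in liver 12v replicate 4 at 149 CPM. SDHC, listed at 0 in the other 3 libraries of each group, had 40.5 CPM in liver 12v replicate 4 and 5.52 CPM in liver 16v replicate 2. In adipose tissue at 12v, replicate 1 was highest for ATP5F1AW at 81.7 CPM, SDHA at 79.2 CPM and SDHB at 148 CPM, ATP5F1AZ was lowest in replicate 4 at 221 CPM, and COX7A2L was highest in replicate 3 at 177 CPM. NDUFV1 was lowest in adipose 8L replicate 3, at 42.1 CPM.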

How the results depend on the processing

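No member was called between photoperiods in either tissue, and this count rested on the tool, the libraries and the counting in liver. At 16v against 8L, library size alone gave 1 called member, a mean of at least 20 counts 4, limma-voom 7, DESeq2 17, the 2 groups alone 11, 1 transcript per gene 13, and the fit without the libraries set apart by the ribosomal protein score 7. At 12v against 8L in liver, DESeq2 gave 10. Leaving out 1 library at a time gave 0 to 5 called members in liver both at 12v against 8L (5 without 12v replicate 4) and at 16v against 8L (1, 4 and 5 without 12v replicates 1, 3 and 4, which are not in that comparison but in its error). In adipose tissue at 16v against 8L, DESeq2 and 1 transcript per gene each gave 2. For liver minus adipose tissue, DESeq2 gave 1 at 12v against 8L and 11 at 16v against 8L, and 1 transcript per gene gave 4 in the second. The cause was not tested. The partner lists between tissues were rescaled as a choice made after seeing the data, as were the fits without muscle-rich or shallow libraries and with the score as covariate. Sample numbers shared between photoperiods do not mark a bird, and deviations of same-numbered libraries correlated at -0.06 to 0.14; with that number as a replicate block, 1 member was called in liver at 16v against 8L and 0 in the other comparisons within a tissue. With the number shared by a liver and an adipose label as a block, 37 of 72 members were called between tissues, in place of 47, all higher in liver, and 0 in the 3 tests of the difference between tissues. Between tissues, 35 to 48 members were called higher when 1 library was left out. Shares of all genes stand above for the counts by DESeq2, limma-voom, the 2 groups alone, 1 transcript per gene and without set-apart libraries. No share is given for library size alone within liver, the filter at 20 counts, the blocks or most fits without 1 library. Those counts show only how the number of calls moved, and are not a result about the members. SDHA changed sign between tissues with library size alone, at -0.03. Of the values of named members under alternatives, 34 of 1258 between tissues lost their call and 17 gained one. The lost calls were all of members higher in liver (SDHA, COX5A, COX6A1 and COX7A2L). The gained calls were all lower in liver (ATP5F1AW, SDHD and NDUFV1). The shallowest liver library, 12v replicate 3, held 6 counts of complex II, so differences of members at such levels were not detectable there. SDHC was listed at 0 in deeper liver libraries too, among them 16v replicate 4, the deepest with 867217 counts. The part of depth in these zeros was not tested.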
